A study of Mus musculus with 2 samples.

Results

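Shared SRCAP peaks at bidirectional coding promoters were 519 of the 28718 CUT&RUN peaks listed for a GFP antibody in SYAT mouse embryonic stem cells (mESCs). A peak was a member when it overlapped a peak of the list made with a SRCAP antibody by at least 1 bp and when its midpoint lay from 1000 bp upstream to 500 bp downstream of the start sites of 2 different protein-coding genes on opposite strands. The start site of the minus-strand gene had to lie 0 to 1000 bp to the left of that of the plus-strand gene, so that the genes were divergent (GENCODE vM21 on GRCm38). Over the whole GFP list 16138 peaks (56.2%) overlapped a SRCAP peak. The members were compared with the 4445 shared peaks at one-way coding promoters and the 11174 shared peaks outside coding promoters. A one-way peak had its midpoint in a coding promoter window but not in both windows of such a pair. Its gene could still have a divergent partner that was noncoding, farther away or out of reach of the midpoint.

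CUT&RUN releases DNA fragments around an antibody-bound protein with a tethered nuclease. SYAT cells derive from the CGR8 mESC line, carry YPet and the auxin-inducible degron AID at the end of both SRCAP alleles, and express the OsTir1 receptor. The GFP antibody therefore recognises the tag and the SRCAP antibody the protein. There was 1 library per antibody, from cells whose individual treatment the labels do not give. The labels' culture protocol describes 200 nM auxinole, an inhibitor of OsTir1, for this line. The study's methods instead give 200 µM for its routine culture, which they call the control condition. The study's figure of SRCAP mapped by CUT&RUN names control SYAT cells. With 1 library each there was no replicate, so no p-value was computed. All intervals are at 95% and cover counting error over peaks, genes or pairs of these libraries only. Read depth behind the lists is unknown.

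SRCAP is the ATPase of a remodelling complex that puts the histone variant H2A.Z in place of H2A, mostly at nucleosomes flanking active start sites. In a bidirectional promoter, 2 genes transcribed away from each other share one nucleosome-depleted stretch of DNA, and each gene has its own first downstream nucleosome. Such promoters are typical of housekeeping genes, are mostly CpG islands without a TATA box, and often hold binding motifs of ETS factors, NRF1, NF-Y and YY1.

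The sequences that follow are the 300 bp around the peak midpoint of a high-scoring member for each of 6 motifs. Each is the highest-ranked one with 2 named genes that was not already shown for another motif. They are shown because members differed from one-way promoter peaks in the share of all these motifs except CREB. For CREB the interval of the difference held 0. All are read 5′ to 3′ on the plus strand of GRCm38, and the capitals mark the motif in either orientation.
Mrpl18/Tcp1, chr17:12916152-12916451, ETS motif: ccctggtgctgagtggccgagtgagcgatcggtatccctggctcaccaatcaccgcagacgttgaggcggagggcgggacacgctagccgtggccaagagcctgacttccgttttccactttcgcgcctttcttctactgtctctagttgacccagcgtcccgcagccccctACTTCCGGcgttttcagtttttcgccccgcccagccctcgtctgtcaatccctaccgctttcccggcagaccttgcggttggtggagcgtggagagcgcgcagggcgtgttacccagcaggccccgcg
Ggps1/Arid4b, chr13:14063363-14063662, NRF1 motif: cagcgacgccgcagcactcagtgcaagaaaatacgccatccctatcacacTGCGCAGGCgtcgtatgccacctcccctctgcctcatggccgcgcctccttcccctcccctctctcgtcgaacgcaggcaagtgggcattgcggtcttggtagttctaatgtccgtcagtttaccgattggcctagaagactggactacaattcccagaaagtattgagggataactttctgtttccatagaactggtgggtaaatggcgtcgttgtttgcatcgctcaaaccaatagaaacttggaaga
Prr11/Ska2, chr11:87108867-87109166, NFY motif: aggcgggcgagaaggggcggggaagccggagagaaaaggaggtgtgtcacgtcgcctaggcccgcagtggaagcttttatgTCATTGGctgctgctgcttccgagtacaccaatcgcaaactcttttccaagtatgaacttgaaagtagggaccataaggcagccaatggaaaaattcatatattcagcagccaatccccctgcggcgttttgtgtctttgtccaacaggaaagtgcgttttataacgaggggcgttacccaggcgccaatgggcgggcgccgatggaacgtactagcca
Cbx5/Hnrnpa1, chr15:103240017-103240316, YY1 motif: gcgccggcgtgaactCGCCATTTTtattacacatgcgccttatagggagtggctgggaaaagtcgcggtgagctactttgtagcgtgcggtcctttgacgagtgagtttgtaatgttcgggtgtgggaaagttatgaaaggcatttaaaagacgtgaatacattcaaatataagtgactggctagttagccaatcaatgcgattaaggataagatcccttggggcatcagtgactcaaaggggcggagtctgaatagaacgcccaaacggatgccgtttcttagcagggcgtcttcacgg
Hscb/Chek2, chr5:110839679-110839978, ZNF143 motif: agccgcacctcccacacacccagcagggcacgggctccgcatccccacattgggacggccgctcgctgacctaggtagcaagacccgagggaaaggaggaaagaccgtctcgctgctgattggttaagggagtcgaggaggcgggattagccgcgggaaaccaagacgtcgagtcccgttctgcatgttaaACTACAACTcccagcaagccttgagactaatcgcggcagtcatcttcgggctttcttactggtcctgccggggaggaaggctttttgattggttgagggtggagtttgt
Zcchc17/Snrnp40, chr4:130359780-130360079, CREB motif: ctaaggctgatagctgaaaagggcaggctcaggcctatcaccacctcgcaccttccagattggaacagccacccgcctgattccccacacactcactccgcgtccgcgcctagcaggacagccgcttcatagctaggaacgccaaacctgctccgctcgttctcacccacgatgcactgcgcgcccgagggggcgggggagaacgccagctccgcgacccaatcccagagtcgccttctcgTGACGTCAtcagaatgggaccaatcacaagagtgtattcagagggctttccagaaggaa

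The first gene of each name is on the minus strand and the second on the plus strand. In the Mrpl18/Tcp1 window both annotated start sites lay inside the printed bases, at position 194 for Mrpl18, a mitochondrial ribosomal protein gene, and at position 231 for Tcp1, a subunit gene of the TRiC chaperonin. Its ETS motif began at position 173, inside the Mrpl18 transcript. In the Hscb/Chek2 window the ZNF143 motif began at position 192, between the start site of Hscb at position 99 and that of Chek2, which lay 1 base past the end of the window. In the Prr11/Ska2 window both start sites lay outside the printed bases, 526 bp apart, so all of the printed DNA lay between them. The NFY motif of this window began at position 82.

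How many of the annotated bidirectional pairs carried a shared peak was counted first. The annotation held 1096 pairs of divergent coding genes, made of 2156 of 21853 coding genes, with a median of 120.5 bp between their start sites. A shared peak lay at 526 pairs (48.0%, 45.1 to 51.0%), and these pairs held 1034 genes. Peaks of the GFP list only lay at 96 pairs (8.76%) and peaks of the SRCAP list only at 114 pairs (10.4%). Peaks of both lists without a shared GFP peak lay at 13 pairs, and 347 pairs (31.7%, 29.0 to 34.5%) had no peak in either list. A peak counted at a pair only when its midpoint lay in the promoter windows of both genes. A pair of the SRCAP list only could thus hold a SRCAP peak overlapping a GFP peak whose midpoint lay outside them. A pair with no peak could still have a listed peak in the window of 1 gene. Of the 519 members, 502 had 1 gene pair and 17 had more than 1, while 10 pairs had 2 members.

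The share of pairs with a shared peak depended on the distance between the start sites. It was 39.0% for pairs 0 to 50 bp apart, 42.3% for 51 to 100 bp, 51.9% for 101 to 250 bp, 62.9% for 251 to 500 bp and 42.2% for 501 to 1000 bp. The share at 251 to 500 bp exceeded that at 0 to 50 bp by 23.9 points (13.3 to 33.6), that at 101 to 250 bp by 11.0 points (1.82 to 19.8) and that at 501 to 1000 bp by 20.7 points (8.34 to 32.3). The stretch within reach of both start sites is 1000 bp plus their distance up to a distance of 500 bp and shrinks beyond it, and the part of this geometry in the differences was not tested.

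**Figure D1:**
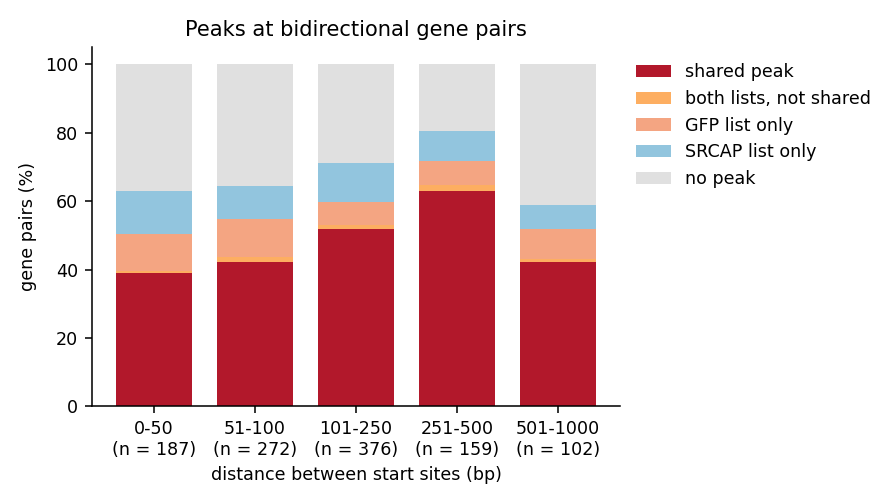
Percent of annotated bidirectional gene pairs (y axis) by the peaks at their promoters, in 5 classes of distance between start sites in bp (x axis, with the number of pairs). The shared part of the bars is highest, 62.9%, at 251 to 500 bp and lowest, 39.0%, at 0 to 50 bp.

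Shared peaks were more frequent at genes of bidirectional pairs than at other coding genes. Over all coding genes 5373 (24.6%) had a shared peak within the promoter window, against 1103 of the 2156 genes in bidirectional pairs (51.2%, 49.1 to 53.3%) and 4270 of the 19697 other genes (21.7%, 21.1 to 22.3%). The difference was 29.5 points (27.3 to 31.7). Both genes of a pair usually share the same peak, which makes the interval over genes too narrow, but the share over pairs given above also lay above that of the other genes. The windows of a gene in a pair covered a median of 1738 bp and those of other genes 1570 bp.

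CpG content moved with this comparison. The CpG ratio, the number of CpG dinucleotides over the number that the C and G content of 500 bp would give, was 0.6 or more for 449 members (86.5%) and for 60.8% of the one-way promoter peaks. Among genes whose promoters had a ratio of 0.6 or more, 53.0% of those in pairs and 34.3% of the others had a shared peak, a difference of 18.8 points (16.4 to 21.1). Among genes with a ratio under 0.6 the shares were 34.0% and 7.91%, a difference of 26.1 points (20.0 to 32.7). The higher share at bidirectional genes was therefore present in both classes of CpG content. Expression level, which also differs between these promoter classes in many cells, was not analysed here.

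**Figure D2:**
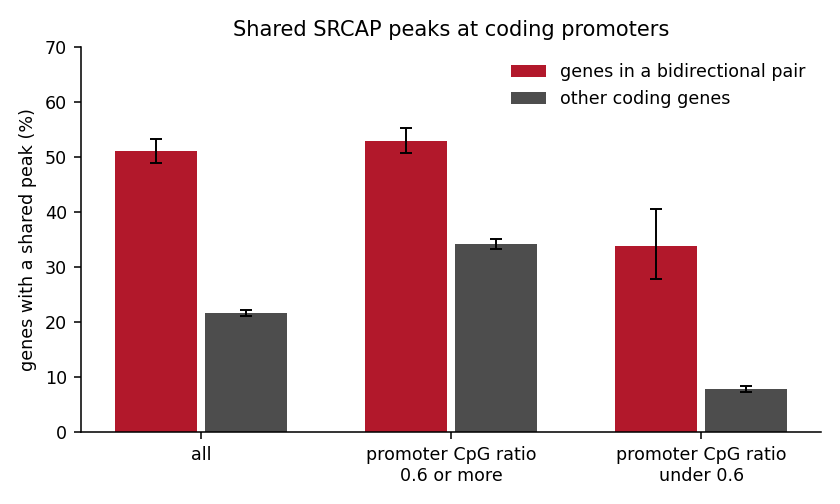
Percent of coding genes with a shared peak in the promoter window (y axis) for genes in bidirectional pairs and other coding genes, over all genes and in 2 classes of promoter CpG ratio (x axis). Bars are shares and error bars 95% Wilson intervals; the bidirectional bar is the higher one in each class, at 51.2% against 21.7% over all genes.

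Pairs without any peak were not poorer in G and C than the pairs with a shared peak. Their median GC content at the centre between the start sites was 64.2% (quartiles 56.4 to 70.1%), and that of the pairs with a shared peak 60.0% (55.7 to 64.4%). Their CpG ratio had a median of 0.843 but a lower quartile of 0.558, against 0.807 and 0.710 at pairs with a shared peak. Of the pairs with a ratio under 0.6, 32.4% had a shared peak and 53.4% had none.

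Members had higher peak scores than one-way promoter peaks in both lists. The score is a whole number given for each peak by the authors, its meaning is not stated, and it was also ranked within its own list as a percentile from 0 to 100. The GFP score of the members ran from 16 through a median of 77 to 537, at a median percentile of 78.6, and that of one-way promoter peaks had a median of 64, at a percentile of 69.5. The interval of the median was 72 to 83 for members and 62 to 66 for one-way peaks. The SRCAP score of the strongest overlapping peak ran from 17 through a median of 80 to 334, against a median of 67 at one-way promoters, with intervals of 74 to 83 and 66 to 68. Where the CpG ratio was 0.6 or more, the medians were 77 and 65 for the GFP score and 82 and 72 for the SRCAP score.

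High scores in both lists were more frequent at members, although no member reached the extreme scores of some one-way peaks. Both scores lay at or above percentile 90 of their lists at 95 members (18.3%) and at 10.8% of one-way promoter peaks, a difference of 7.46 points (4.23 to 11.1). Both scores lay below the median of their lists at 41 members (7.90%) and at 12.8% of one-way peaks. The largest GFP score was 537 among members and 38530 among one-way promoter peaks.

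**Figure D3:**
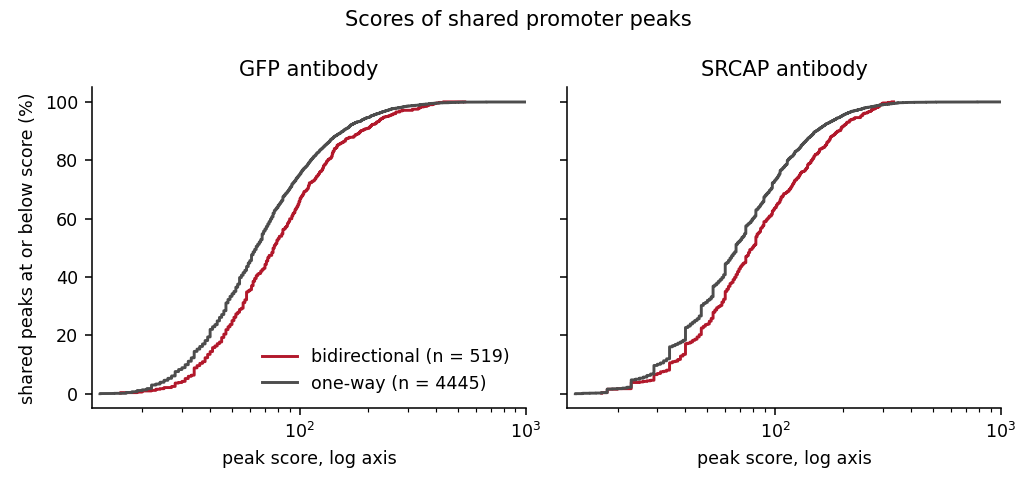
Cumulative percent of shared peaks (y axis) at or below each peak score (x axis, log scale) for the GFP list and for the strongest overlapping peak of the SRCAP list; one-way scores above 1000 lie beyond the axis. In both lists the bidirectional line lies to the right of the one-way line over most of the range, with medians of 77 against 64 and of 80 against 67.

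The scores of both antibodies ranked the members alike in part. Across members Spearman's rho between them was 0.559 and Pearson's r of the log scores 0.579, and across one-way promoter peaks the values were 0.546 and 0.593. These points come from the same 2 libraries and share fragment density, mappability and base composition, so the values are descriptions only. Members were also wider than one-way peaks, with a median width of 434 bp (interval 410 to 462) against 382 bp (375 to 391) in the GFP list.

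Peaks at bidirectional promoters were also found in both lists more often. Of 642 GFP peaks at bidirectional promoters 80.8% overlapped a SRCAP peak, against 69.4% of 6409 at one-way promoters, a difference of 11.5 points (8.07 to 14.6). Among peaks up to the lower quartile of scores the shares were 36.1% and 39.6% (difference -3.41 points, -13.3 to 7.66), and in the next 3 score classes, split at the median and the upper quartile, they were 63.6% and 55.6%, 88.4% and 73.4%, and 96.6% and 93.6%. The difference left out 0 in the upper 2 classes of this list. From the SRCAP list, 79.7% of 666 peaks at bidirectional promoters overlapped a GFP peak and 68.5% of those at one-way promoters. In that list the difference left out 0 in the lowest class (12.2 points, 0.765 to 23.5) and the highest (5.20 points, 1.83 to 7.62) but not in the classes between them, so the pattern over score classes was not the same in both lists.

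By rank in both lists, the strongest member was at Haus8/Myo9b, with a GFP score of 401 and a SRCAP score of 327. Haus8 encodes a subunit of the augmin complex of the mitotic spindle. Prr11/Ska2, with scores of 338 and 294, came next, and Ska2 is part of the kinetochore complex that holds chromosomes to microtubules. The members at Fbxo24/Lrch4 (343 and 292) and Tom1l2/Drc3 (338 and 289) had like values.

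Both Mediator genes among the strongest 10 members were paired with other genes. Med29/Paf1 scored 431 and 291, and Paf1 encodes a subunit of the elongation complex named after it. Tmx2/Med19 scored 334 and 288. Asf1b, a histone H3-H4 chaperone gene, shared its promoter with the predicted gene Gm10644 at scores of 266 and 299. The highest GFP score of all members, 537, was at Srgap2/Fam72a, where the SRCAP score was 285. Ggps1/Arid4b (369 and 268) and Hscb/Chek2 (373 and 266) completed the 10, and Chek2 encodes a DNA damage checkpoint kinase.

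At the other end, Zfp668/Zfp646, a pair of zinc finger genes, had a GFP score of 16 and a SRCAP score of 58. Lrrc74b/P2rx6 scored 38 and 17, and Atp5c1/Kin, which includes the gamma subunit gene of ATP synthase, scored 19 and 48. The largest gaps towards the GFP list were at Zfp942/Zfp943 (132 and 18), Fig4/Ak9 (87 and 18) and Cyb5d1/Naa38 (84 and 18). The largest gaps towards the SRCAP list were at Cog8/Nip7 (22 and 97), Acd/Pard6a (34 and 171) and Mrpl54/Apba3 (23 and 74). Acd encodes a protein of the telomere cap. At such members the antibodies ranked the same site very differently.

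The 3 widest members lay at Usp5/Cdca3 (1491 bp, scores 191 and 144), Syngr4/Tmem143 (1295 bp, scores 50 and 127) and Mboat7/Tsen34 (1268 bp, scores 139 and 79). The start sites of Nsa2/Gfm2 lay 0 bp apart and its scores were 45 and 28. Bag4/Lsm1 (58 and 83) and Dcun1d3/Lyrm1 (62 and 37) followed at 1 bp. Just inside the distance limit of 1000 bp lay Btf3l4/Txndc12 at 987 bp (221 and 65) and Mrpl41/Pnpla7 at 935 bp (71 and 82). Just outside it lay Ddias/Prcp at 1005 bp (53 and 152), Pinlyp/Xrcc1 at 1032 bp (35 and 111) and Ushbp1/Babam1 at 1076 bp (120 and 82). The GFP scores on either side of the limit overlapped, while the SRCAP scores were at most 82 inside it and at least 82 outside it. With so few pairs on each side this was not tested.

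The midpoints of members lay between the start sites more often than the allowed positions did. The midpoint lay between the start sites at 190 members (36.6%, 32.6 to 40.8%), on the side of the minus-strand gene at 165 (31.8%) and on that of the plus-strand gene at 164 (31.6%). Of the midpoint positions that the rule allowed at each member's start sites, 16.7% on average lay between them. That reference is an even spread over the allowed positions. Midpoints at one-way promoters also gathered near start sites, at a median of 168 bp to either side, so an excess over it was likely beforehand. The peak covered both start sites at 255 members (49.1%), only one at 160 (30.8%) and none at 104 (20.0%).

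Whether the midpoint lay between the start sites followed their distance. It did at 3 of 70 members (4.29%) with start sites 0 to 50 bp apart, at 11.6% for 51 to 100 bp, 35.4% for 101 to 250 bp, 69.7% for 251 to 500 bp and 83.7% for 501 to 1000 bp. The allowed positions between start sites averaged 3.03%, 7.22%, 14.2%, 25.6% and 54.8% in the same classes. At the 182 members with start sites at most 100 bp apart, 26 midpoints (14.3%) lay within 50 bp of the centre, and the others lay to either side of it, most of them 50 to 250 bp away. The median GFP score was 61.5, 64, 81, 103 and 87 over the 5 classes of distance.

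Midpoints were also placed from the SRCAP list. Of the 531 shared SRCAP peaks at bidirectional promoters, 217 midpoints (40.9%) lay between the start sites. At 385 of the 519 members (74.2%, 70.2 to 77.8%) the GFP peak and its SRCAP counterpart fell in the same place, between the start sites or on the same gene's side. They fell on opposite genes at 18 members (3.47%). Members were chosen for overlap of both peaks, so these shares are largely fixed by the choice and are descriptions only. The midpoints of both antibodies were a median of 62 bp apart at members and 57 bp apart at one-way promoter peaks.

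**Figure D4:**
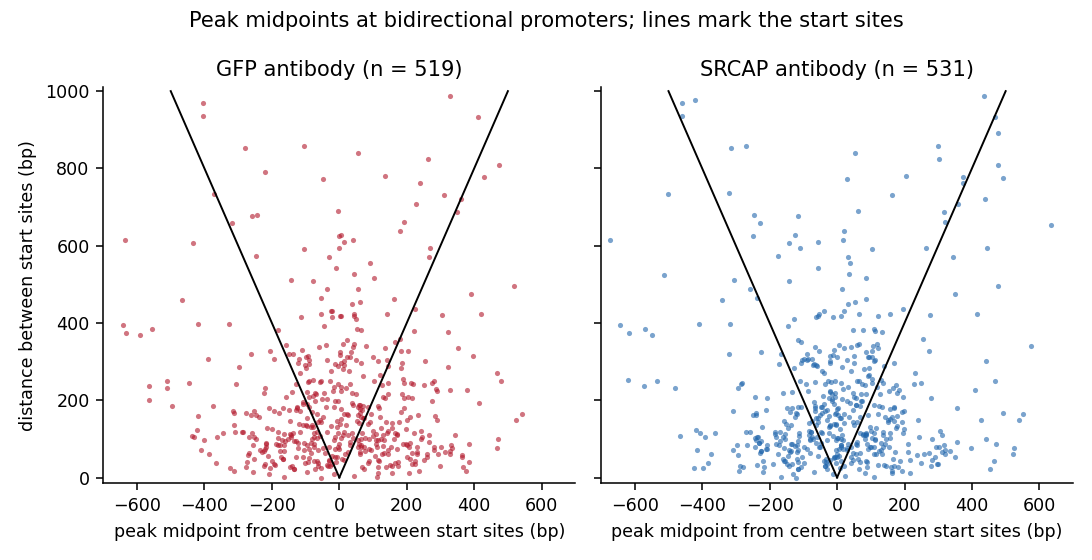
Midpoints of shared peaks in bp from the centre between the start sites (x axis, plus-strand gene to the right) against the distance between the start sites in bp (y axis), for GFP peaks (n = 519) and SRCAP peaks (n = 531); each point is 1 peak and the lines mark the start sites. With short distances most points lie outside the lines, on the side of either gene, and with distances over 250 bp most lie between them.

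Against the nearest coding start site, 49.5% of the member midpoints (45.2 to 53.8%) lay upstream, at a median of 1 bp downstream and a median of 61 bp to either side. At one-way promoters 74.7% lay upstream, at a median of 136 bp upstream (-136 bp), and a median of 168 bp to either side. With a start site on each side a midpoint is never farther upstream than the partner's start site allows, so these values differ by construction in part.

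The search for 12 motifs covered the 300 bp around each midpoint, on both strands and without mismatches. They were ETS (CCGGAAGT), NRF1 (TGCGCANGC), YY1 (AANATGGCG), ZNF143 (ACTACAANT), CREB (TGACGTCA), SP/KLF (GGGGCGGG), E2F (TTTCCCGC or TTTGGCGC), CTCF (CAGGGGGCG) and octamer (ATGCAAAT). The NFY motif was searched as CCAATCA and, in the same windows, as CCAATGA. The E-box was searched as CACGTG. The TATA box was searched by the letters of its usual consensus, TATAAA. None is contained in another, but the ends of the SP/KLF motif can share bases with those of E2F and CTCF. A match describes the letters and not binding of a factor.

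The letters bound by NF-Y, a CCAAT-box factor, and SP/KLF letters were the most frequent of the motifs in members, with overlapping intervals. Which of them came first changed with the setting: with SRCAP peaks placed at promoters NFY was at 27.9% and SP/KLF at 30.7%. NFY matches were found in 138 members (26.6%), 18.5% of one-way promoter peaks, 9.25% of shared peaks outside promoters and 13.2% of all coding promoters, taken from 250 bp upstream to 50 bp downstream of the start. The difference between members and one-way peaks was 8.12 points (4.32 to 12.2), and 6.59 points (2.40 to 11.1) where the CpG ratio was 0.6 or more. More than 1 match was present in 28 members. The Prr11/Ska2 sequence printed above holds 1 match and further CCAAT cores that the search did not count.

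ETS, NRF1 and YY1 motifs also were more frequent in members than in one-way peaks. ETS matches, the binding letters of a family that includes GABPA, were in 9.83% of members and 5.13% of one-way peaks, a difference of 4.70 points (2.32 to 7.63). NRF1 matches, of a regulator of mitochondrial genes, were in 10.2% and 6.10%. YY1 matches were in 5.97% and 2.90%, a difference of 3.07 points (1.26 to 5.49). All of these differences also left out 0 where the CpG ratio was 0.6 or more, the one for NRF1 narrowly (2.85 points, 0.007 to 6.26). Under 0.6, with 70 members, the ETS difference left out 0 (5.08 points, 0.95 to 13.6). Those of NRF1 (0.505 points, -1.72 to 7.51) and YY1 (-0.861 points, -1.42 to 4.35) held 0 there.

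ZNF143 and SP/KLF matches differed over all members but not within the CpG-rich class. ZNF143 matches were in 6.36% of members and 3.40% of one-way peaks, and the difference of 1.98 points in the CpG-rich class had an interval from -0.08 to 4.70. SP/KLF matches were in 25.2% and 19.1%, and the difference in the CpG-rich class was 2.52 points (-1.66 to 7.05). The intervals of E-box (7.71% and 8.08%), E2F (4.24% and 2.90%), CREB (2.12% and 1.91%), CTCF (1.73% and 2.09%), TATA (4.05% and 5.08%) and octamer (1.35% and 2.00%) held 0. In all, 260 members (50.1%) held 1 or more of ETS, NRF1, NFY, YY1 and ZNF143, against 31.9% of one-way peaks, 12.7% outside promoters and 25% of coding promoters. The promoters of all genes in bidirectional pairs, with or without a peak, held 1 or more of the 5 at 42.8%. Their shares of ETS (11.8%), NRF1 (10.9%) and YY1 (6.54%) were not below those of the members, while those of NFY (18.4%) and ZNF143 (3.66%) were. These promoters were searched from 250 bp upstream to 50 bp downstream of a gene's start, and members around the peak midpoint. The windows are therefore unlike in place, and both genes of a pair count.

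**Figure D5:**
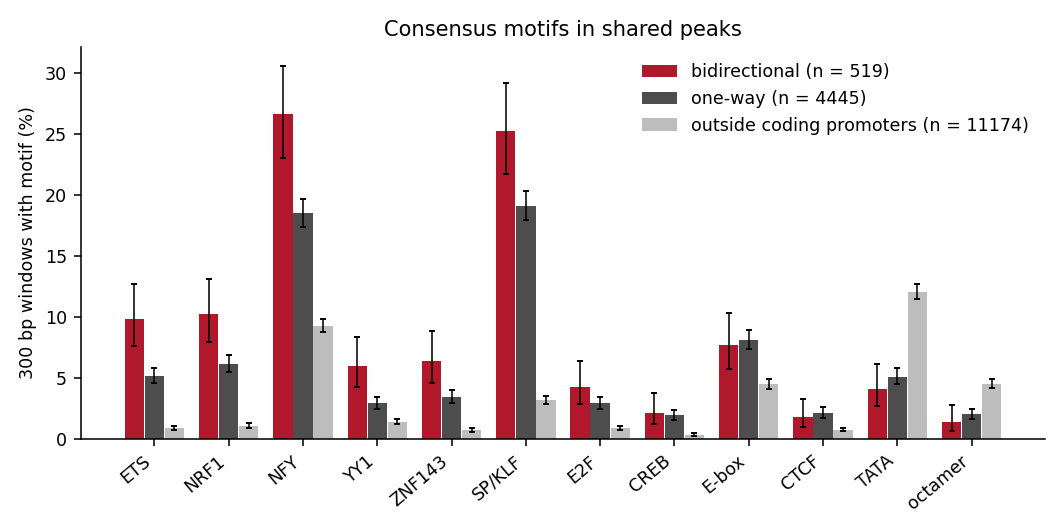
Percent of 300 bp windows at shared peaks (y axis) that hold each of 12 consensus motifs (x axis), for peaks at bidirectional promoters, at one-way promoters and outside coding promoters; error bars are 95% Wilson intervals. NFY stands at 26.6% at bidirectional and 18.5% at one-way promoters, and SP/KLF at 25.2% and 19.1%.

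Bidirectional pairs with a shared peak and with no peak in either list were also compared, in 300 bp at the centre between their start sites. This place does not depend on the peaks. The start sites were a median of 144 bp apart at pairs with a shared peak and 108 bp at those with no peak. The part of distance in the motif differences was not tested. NFY matches were in 27.6% of pairs with a shared peak and 9.51% of those with no peak, a difference of 18.1 points (13 to 22.8) that was 19.2 points (13.6 to 24.4) at CpG ratios of 0.6 or more. ZNF143 matches were in 7.22% and 0.865%. ETS matches went the other way, with 10.1% and 13.8%, and the difference of -3.76 points (-8.39 to 0.57) held 0 over all pairs but not at CpG ratios of 0.6 or more (-7.34 points, -13.1 to -2.11). The 223 pairs with other peaks, of 1 list only or of both without a shared GFP peak, held ETS matches at 17.5% and NFY matches at 17.9%. Thus, ETS motifs were more frequent at members than at one-way peaks. Among bidirectional pairs they were not more frequent with a shared peak than with no peak.

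Scores differed with motif content as well. Members with an NFY match had a median GFP score of 95 and SRCAP score of 99.5, and members without 72 and 74. With a ZNF143 match the medians were 118 and 97, against 76 and 77. With an NRF1 match the SRCAP median was 106 against 76.5, while the GFP medians were 78 and 76.5. With a YY1 match the SRCAP median was 52 against 82, and the GFP medians were 76 and 77. For NRF1, with 53 members, and YY1, with 31, the medians of the antibodies therefore did not move together. The quartiles of the SRCAP score overlapped in both cases. They were 74 to 169 with NRF1 and 49 to 122 without, and 43 to 89.5 with YY1 and 53 to 131.8 without. By place, 67.4% of 172 NFY and 68.6% of 35 ZNF143 matches in members lay between the start sites. The shares were 30.0% of 60 ETS and 29.0% of 31 YY1 matches. How many of the searched bases lie between the start sites grows with their distance and is not given here. The median distance was 183 bp at members with NFY, 174 bp with ZNF143, 157 bp with YY1 and 111 bp with ETS. Without the motif it was 133, 146, 148 and 154 bp in the same order. Across members the scores tended to rise with distance (Spearman's rho 0.212 for GFP and 0.168 for SRCAP). The part of distance in the score differences was not tested.

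Gene function was described with 18 lists of genes chosen by name pattern. Of all 2156 genes in bidirectional pairs 48.0% had a member, and most lists lay around this value. Cell cycle and mitosis genes had a member at 26 of 45, DNA replication and repair genes at 24 of 49, splicing and RNA processing genes at 27 of 60, and vesicle trafficking genes at 18 of 38. Among the strongest of these were Xrcc3/Zfyve21 (185 and 199), with a recombination repair gene, Qpctl/Snrpd2 (142 and 196), with a gene of the spliceosomal Sm ring, and Dhx38/Txnl4b (137 and 208), with a splicing helicase gene. Of the TRAPP tethering complex, Trappc11/Rwdd4a scored 194 and 215 and Galns/Trappc2l 140 and 213.

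Mitochondrial and translation genes gave like counts. Mitochondrial ribosomal protein genes had a member at 15 of 26, respiratory chain and ATP synthase genes at 17 of 34, mitochondrial import genes at 4 of 7 and tRNA synthetase and translation factor genes at 14 of 26. Mrps12/Sars2, a mitochondrial ribosomal protein gene beside the mitochondrial seryl-tRNA synthetase gene, scored 225 and 275, and Mrpl18/Tcp1 scored 235 and 334. Ndufa2/Ik (126 and 118) and Uqcr10/Zmat5 (214 and 117) led the respiratory chain list, Timm9/2700049A03Rik (79 and 218) and Timm21/Fbxo15 (63 and 154) the import list, and Kars/Terf2ip scored 120 and 124.

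Proteasome subunit genes had a member at 8 of 11, chromatin regulator genes at 11 of 18, RNA polymerase, Mediator and general factor genes at 14 of 28, chaperone genes at 13 of 29 and zinc finger genes at 18 of 34. Psme2/Rnf31 (113 and 72) and Mrpl32/Psma2 (64 and 171) led the proteasome list. Nfkbib/Sirt2 (133 and 157), Hspa14/Cdnf (134 and 143), Zfp654/Cggbp1 (110 and 178) and Zfp142/Bcs1l (131 and 108) were among the strongest of the other lists. With 11 to 34 genes per list, all of their intervals held 48.0%.

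Lower counts were found for cytosolic ribosomal protein genes, with 3 of 14 (21.4%, 7.57 to 47.6%), and histone genes, with 8 of 27 (29.6%, 15.8 to 48.5%). Trappc4/Rps25 (117 and 72) and Sphk2/Rpl18 (59 and 64) led the former, and Hist1h2ak/Hist1h2bn (154 and 89) and Hist1h2bh/Hist1h3f (81 and 111) the latter. The interval of the ribosomal protein genes ended just under 48.0%, while that of the histone genes held it. Histone genes are near-identical copies, and how reads that match several copies were treated in these libraries is not given in the sources used here. Of 174 developmental regulator genes 6 were in a bidirectional pair and 2 had a member, at Foxred1/Srpr (39 and 60) and Foxa3/Sympk (51 and 29), of which Foxred1 matched by the start of its name and is an oxidoreductase gene. The 1 of 3 genes in the collagen list, at Polk/Col4a3bp (58 and 46), likewise encodes a ceramide transfer protein. No olfactory receptor gene was in a pair.

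Of 19 pairs named in textbook accounts of divergent genes, 8 carried a member. Prkdc/Mcm4, a DNA repair kinase gene beside a replicative helicase gene, scored 139 and 77. Atm/Npat scored 71 and 181, Pms2/Aimp2 81 and 60, and Psmb1/Tbp 58 and 102, in addition to Mrps12/Sars2. Brca1/Nbr1 had 1 GFP peak of 182 and SRCAP peaks of 47 and 188, and Sirt3/Psmd13 had GFP peaks of 34 and 32 and a SRCAP peak of 70. Gart/Son (29) and Fen1/Tmem258 (136) had a peak in the GFP list only. Hspd1/Hspe1, Surf1/Surf2, Hars/Hars2 and Trp53/Wrap53 had no peak in either list, and Ppat/Paics, Tk1/Afmid, Col4a1/Col4a2 and Col4a5/Col4a6 were no pair by the rule. A pair without a listed peak is one where no peak that passed the authors' threshold had its midpoint in the promoter windows of both genes.

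Members lay on 20 chromosomes. The numbers ran from 9 on chromosomes 18 and X to 55 on chromosome 7, and annotated pairs from 18 on chromosome 18 to 101 on chromosome 11. Chromosome X had 9 members for 30 annotated pairs and chromosome 8 had 34 for 65.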

How the data were processed

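CUT&RUN was carried out in SYAT mESCs with 1 library per antibody, grouped by antibody from the library titles. The deposited lists hold 1 score per peak, a whole number of at least 13 that the authors did not define. The peak names carry the caller MACS2, and the submitters' processing notes name STAR, Picard, MACS2, mm10 and dm6. The control and the depth are not given in the sources used here, and both decide which peaks are listed. The study's methods do not name the GFP antibody for CUT&RUN, so the assay of that library rests on its labels. Coordinates fit GRCm38, whose RefSeq sequence was read for motifs, GC and CpG content.

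Peaks were assigned by midpoint to GENCODE vM21 protein-coding start sites. The start site pair with the shortest distance and the strongest overlapping SRCAP peak described each member. Differences of shares are given with Newcombe intervals and called where these leave out 0, shares with Wilson intervals and medians with order-statistic intervals. Named members were the 10 strongest and 3 weakest by the lower of both percentiles, the 3 widest, the 3 with the shortest and longest distance, the 3 with the largest percentile gap each way, the 2 strongest per gene list, all classic pairs, and the strongest per printed motif not already printed for another, except that 3 gene pairs named by this rule are not reported here. Members and lists were chosen with earlier results of these data known. Alternatives changed the distance limit, overlap, score minimum, transcript set, start sites per gene, placed list and motif window. Overlaps were checked against bedtools 2.31.1, the functions were tested on simulated data, and analysis used Python 3.11.15, pandas 2.3.3 and scipy 1.17.1.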

Additional observations from a re-analysis of the deposited data

How the results depend on the processing

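Under the alternatives, 86 of 96 values of the comparisons stayed inside their counting interval or, for differences and the number of members, kept their call or stayed within 1.5 times. The other 10 moved further and 0 reversed. Of 96 shares of single motifs and other single values, 83 stayed inside their interval, 13 did not and 0 reversed. A distance of at most 500 bp between start sites left 32.4% of midpoints between them. A reciprocal overlap of at least 50% left a shared peak at 38.1% of pairs and antibody midpoints within 100 bp at 83.5% of members. Peaks at or above the median score gave 32.9% of pairs, a median score of 98, a median width of 478 bp and 55.0% of members with 1 or more of the 5 motifs ETS, NRF1, NFY, YY1 and ZNF143. Placing SRCAP peaks at promoters gave a median width of 390 bp and 40.9% of midpoints between start sites, and a motif window of 200 bp gave 35.1% with 1 or more of the 5 motifs, since fewer bases are searched. The difference between bidirectional and other genes ranged from 21.9 to 29.7 points, with the overlap and placed-list settings added after seeing the data, and that between members and one-way peaks in NFY from 5.56 to 9.26 points. No paired analysis was possible because there was only 1 library of either kind. With no replicate and no control antibody analysed here, differences between cell cultures and antibody background cannot be told apart from the values given.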
